A study of Mus musculus with 6 samples.

Results

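The NF-kappaB subunits and inhibitors described here are 10 of the 18193 genes named on the array, Nfkbia, Nfkbib, Nfkbie, Nfkbiz, Bcl3, Rel, Rela, Relb, Nfkb2 and Tnfaip3, taken by the gene symbol of the array platform. They were read by 20 of the 45037 probe sets that are no controls, and all 20 carried a single symbol. The cells were Ba/F3, an immortal mouse pro-B line that needs interleukin-3 to grow, of BALB/c background and grown with WEHI-3 supernatant. All of them had been transduced with PAX5-KIDINS220, a fusion of a B-lineage transcription factor with a membrane scaffold protein, under a Tet-on promoter. The labels do not say whether the line is a single clone. The 3 Dox(+) samples received 500 ng/mL doxycycline, which switches the fusion on, and the 3 Dox(-) samples received none, with RNA taken after 24 h. No cells without the fusion are among the 6 samples, so an effect of doxycycline itself cannot be told apart from that of the fusion. By the start of the array codes in the sample titles, 2 arrays (1 Dox(+), 1 Dox(-)) form a 2-array set and 4 (2 Dox(+), 2 Dox(-)) a 4-array set, and the labels give these codes no meaning. Within the 4-array set the codes of the Dox(+) arrays precede those of the Dox(-) arrays, so that order and doxycycline cannot be told apart. Whether the samples of a group came from separate cultures is not stated. The p-values refer to the spread of the arrays in each fit, part or all of which may be technical. For the 4-array set alone these are 2 Dox(+) and 2 Dox(-) arrays, whose spread limma combines with that of all probe sets.

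NF-kappaB is a family of dimeric transcription factors. In resting cells inhibitor proteins of the IkappaB family hold the dimers in the cytoplasm, and signals from receptors activate the IKK kinases, which mark IkappaB proteins for destruction and so free the dimers to enter the nucleus. Several inhibitors are themselves NF-kappaB target genes, above all Nfkbia and Tnfaip3, so that their mRNA rises after activation as part of a negative feedback. In B-lineage cells the family supports survival and responds to antigen receptors and to receptors of the tumour necrosis factor family.

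In the results that follow, probe sets of Nfkbia differed with doxycycline in the 4-array set and between the array sets. Those of Nfkbie, Tnfaip3 and Nfkbib differed between the array sets alone. The sequences just upstream of these 4 inhibitor genes are shown for that reason. Each is the 250 bases before the gene's start in RefSeq (GRCm38.p6), written 5′ to 3′ on the gene's own strand, with matches to the 10-base kappaB consensus on either strand in capitals. The windows lie at chr12:55492648-55492897 (minus strand) for Nfkbia, chr17:45555450-45555699 (plus strand) for Nfkbie, chr10:19015411-19015660 (minus strand) for Tnfaip3 and chr7:28766645-28766894 (minus strand) for Nfkbib.
Nfkbia: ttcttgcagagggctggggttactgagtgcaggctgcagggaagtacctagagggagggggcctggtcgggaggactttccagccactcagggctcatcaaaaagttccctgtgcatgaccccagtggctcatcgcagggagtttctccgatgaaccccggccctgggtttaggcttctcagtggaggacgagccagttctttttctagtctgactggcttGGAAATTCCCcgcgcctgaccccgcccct
Nfkbie: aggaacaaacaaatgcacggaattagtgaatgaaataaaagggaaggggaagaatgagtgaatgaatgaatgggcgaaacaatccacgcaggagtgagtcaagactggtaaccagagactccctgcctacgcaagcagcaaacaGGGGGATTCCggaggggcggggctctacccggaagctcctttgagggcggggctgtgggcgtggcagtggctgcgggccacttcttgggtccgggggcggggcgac
Tnfaip3: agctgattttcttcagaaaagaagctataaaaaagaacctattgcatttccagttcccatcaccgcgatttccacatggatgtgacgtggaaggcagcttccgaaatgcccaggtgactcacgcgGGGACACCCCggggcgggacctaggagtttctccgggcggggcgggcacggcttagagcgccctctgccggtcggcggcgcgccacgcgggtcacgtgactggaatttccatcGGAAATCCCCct
Nfkbib: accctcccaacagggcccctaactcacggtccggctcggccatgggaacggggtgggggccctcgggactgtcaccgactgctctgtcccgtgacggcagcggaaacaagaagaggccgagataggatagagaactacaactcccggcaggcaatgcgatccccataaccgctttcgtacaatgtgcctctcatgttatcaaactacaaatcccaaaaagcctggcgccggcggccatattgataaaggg
The Nfkbia window held GGAAATTCCC with its first base at position -29, where -1 is the base before the start. That of Nfkbie held GGGGGATTCC at -106, and that of Tnfaip3 GGGACACCCC at -125 and GGAAATCCCC at -12. No match was found in the Nfkbib window. A further Tnfaip3 window in the table held none, and 8 of the 10 genes had a window, the exceptions being Nfkbiz and Relb. With a gene counted once if any of its windows matched, 5 of the 8 did (62.5%), the other two being Nfkb2, with GGGAATTCCC at -39 and GGGGCTTTCC at -11 of 1 of its windows and 1 match in each of the others (GGAATGTCCC at -236, GGGACTTTCC at -225), and Rel, with GGGAAATCCC at -92. For Nfkb2 (at -38) and Rel (at -91) another match overlapped these. Neither Nfkb2 nor Rel had a probe set that passed with doxycycline or between the array sets in the results that follow. The share was 8.23% over all 27025 genes and 43.5% (10 of 23) for a list of known NF-kappaB target genes. A match is a description of the letters and not a binding site.

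The deposited signals share a single trimmed mean across arrays, and their median was between 57.1 and 61.8 on the Dox(+) arrays and between 56.3 and 65.6 on the Dox(-) arrays. Pax5 (1421765_at) was measured at 119, 94.5 and 94.2 in Dox(+) and 15.6, 3.76 and 20.3 in Dox(-) cells, a log2 difference of 2.06 (SE 0.37, limma adjusted p 0.12). Its other probe set, 1454401_at, had 51.6, 133 and 48.1 in Dox(+) and 23.9, 92.0 and 81.4 in Dox(-) cells, with overlap (0.21, SE 0.40, limma adjusted p 0.92), and the 4 Kidins220 probe sets differed by -0.08 to 0.26. Which part of the transcripts they read, and whether they detect the fusion, is not known here. Of the markers of an interleukin-3 dependent line, Ptprc, Spn, Il3ra, Csf2rb and Csf2rb2 lay above the limit used here for dim probe sets, the 40th percentile of mean signal (36.3), and Kit below it. Of the early B-lineage markers Cd79b, Igll1 and Vpreb1 lay above it, and Cd79a, Ebf1 and Rag1 below it. Markers of myelomonocytic cells such as WEHI-3 had a summed signal of 2512 to 2650 in Dox(+) and 2393 to 2564 in Dox(-) samples, with Cd14 and Il3 below the limit and 6 of 8 above it. The ratio of 3′ to 5′ actin control signals was 1.17 to 1.24 in Dox(+) and 1.18 to 1.23 in Dox(-) samples. All differences and fold changes given here are of log2(signal + 16), Dox(+) minus Dox(-) unless stated, which understates changes of dim genes. A fold change is therefore not the plain ratio of the signals beside it. An adjusted p under 0.05 over all 45037 probe sets was counted as a call.

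Nfkbia, which encodes IkappaBalpha, was the only gene among the 10 called with doxycycline in the fits given here. In the 4-array set 4 of its 5 probe sets rose by 1.63- to 1.86-fold, while in the 2-array set the same 4 stood at ratios of 1.003 to 1.20. IkappaBalpha is the inhibitor that is degraded first after a stimulus and then made again from its own induced mRNA. Probe set 1448306_at had signals of 2478 and 2544 in Dox(+) against 1368 and 1406 in Dox(-) cells of the 4-array set, and of 651 against 539 in the 2-array set. Both Dox(+) arrays of the 4-array set lay well above both Dox(-) arrays there, and all 4 lay above both arrays of the 2-array set. The difference in the 4-array set was 0.85 (SE 0.07, limma adjusted p 0.021), which is 1.80-fold (95% interval 1.61 to 2.01). In bulk RNA a change in the number of cells of a type and in RNA per cell cannot be told apart. By p-value this probe set ranked 8 of all those tested in that fit.

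The other Nfkbia probe sets that rose gave the same picture. For 1438157_s_at the signals were 5435 and 5593 in Dox(+) against 3129 and 2796 in Dox(-) cells of the 4-array set, and 1337 against 1327 in the 2-array set. The pair of the 2-array set was thus nearly equal, while the 4-array set differed by 0.89 (SE 0.08, limma adjusted p 0.026), or 1.86-fold (1.63 to 2.11). For 1420088_at they were 7807 and 8726 in Dox(+) against 4957 and 4674 in Dox(-) cells of the 4-array set (1.71-fold, 1.49 to 1.96, limma adjusted p 0.035), and 2746 against 2737 in the 2-array set. For 1449731_s_at they were 2718 and 2999 in Dox(+) against 1789 and 1702 in Dox(-) cells (1.63-fold, 1.44 to 1.85, limma adjusted p 0.037), and 625 against 600. The fifth, 1420089_at, was dimmer, with signals of 250 and 269 in Dox(+) against 224 and 218 in Dox(-) cells of the 4-array set and 179 against 186 in the 2-array set. It pointed the same way in the 4-array set, but its difference of 0.22 (SE 0.16, limma adjusted p 0.69) did not pass. Endings in _s_at mark probe sets that can read more than a single transcript, and where on Nfkbia these 5 lie is not known here.

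**Figure D1:**
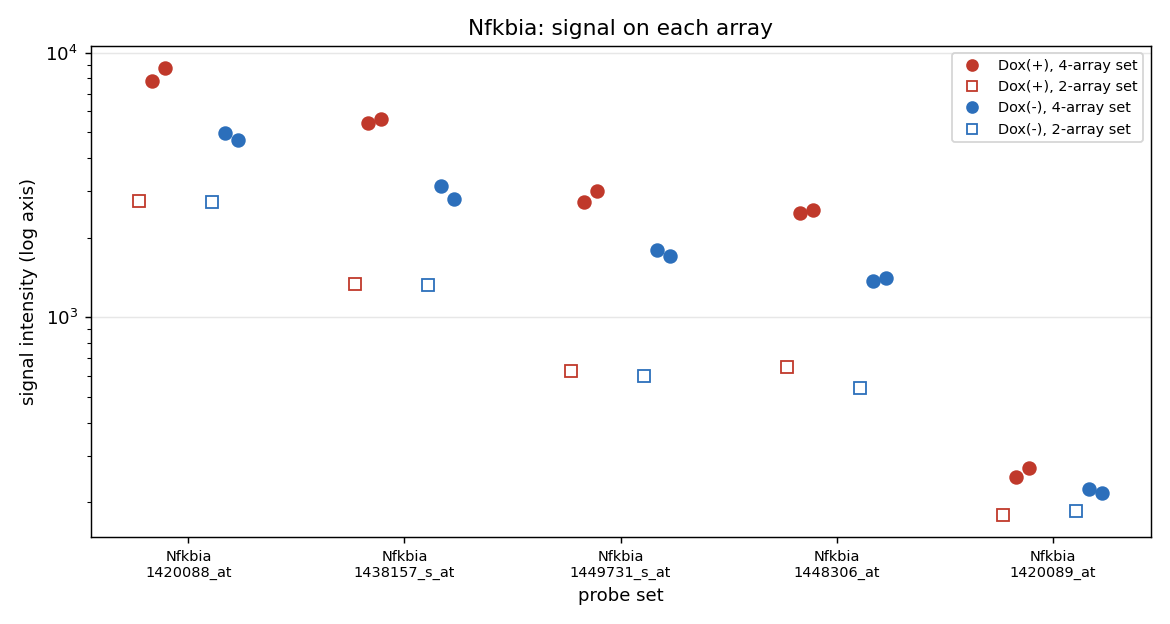
Signal intensity (log axis) of the 5 Nfkbia probe sets on each of the 6 arrays, with Dox(+) in red to the left and Dox(-) in blue to the right of each position, filled circles for the 4-array set and open squares for the 2-array set. For the 4 brighter probe sets the red circles lie above the blue ones, while the red and blue squares lie close together and below all circles.

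When all 6 arrays were fitted with a block for the array set, the Nfkbia differences averaged over both sets and none passed. They were 0.65 (SE 0.11, limma adjusted p 0.10) for 1448306_at, 0.60 (SE 0.15, 0.27) for 1438157_s_at, 0.52 (SE 0.14, 0.29) for 1420088_at, 0.49 (SE 0.12, 0.26) for 1449731_s_at and 0.13 (SE 0.14, 0.83) for 1420089_at. Without the block the log2 differences were the same by construction, and the limma adjusted p was 1.0 for each. Of the 20 probe sets, 4 passed as higher in the 4-array set alone, all of Nfkbia, where 0.0999% of all probe sets did. In the fit with the block 0 of the 20 passed, beside 0.0866% of all probe sets. Leaving out either array of the 2-array set let 3 Nfkbia probe sets pass, and leaving out dim probe sets let 1448306_at pass (limma adjusted p 0.040). In that blocked fit 5 of the 20 had an unadjusted limma p under 0.05 (4 of Nfkbia and 1 of Nfkbie), beside 9.44% of all probe sets. All 5 were higher, beside 4.58% of all probe sets that were higher at that level. Without the block 0 of the 20 had an unadjusted p under 0.05, beside 2.98% of all. Probe sets of the same gene are not independent, so these counts rest mainly on Nfkbia.

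Whether the response of Nfkbia was unequal in the 2 sets was tested with an interaction term, in which the spread comes from the 4-array set and is assumed to hold for the single pair of the 2-array set. The difference in the 4-array set minus that in the 2-array set was 0.88 (SE 0.14, limma adjusted p 0.36) for 1438157_s_at, 0.77 (SE 0.14, 0.56) for 1420088_at, 0.65 (SE 0.14, 0.70) for 1449731_s_at and 0.59 (SE 0.12, 0.70) for 1448306_at, so that none passed over all probe sets. At an unadjusted p under 0.05 there were 5 of the 20, these 4 and the Nfkb2 probe set 1429128_x_at, beside 5.99% of all probe sets.

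**Figure D2:**
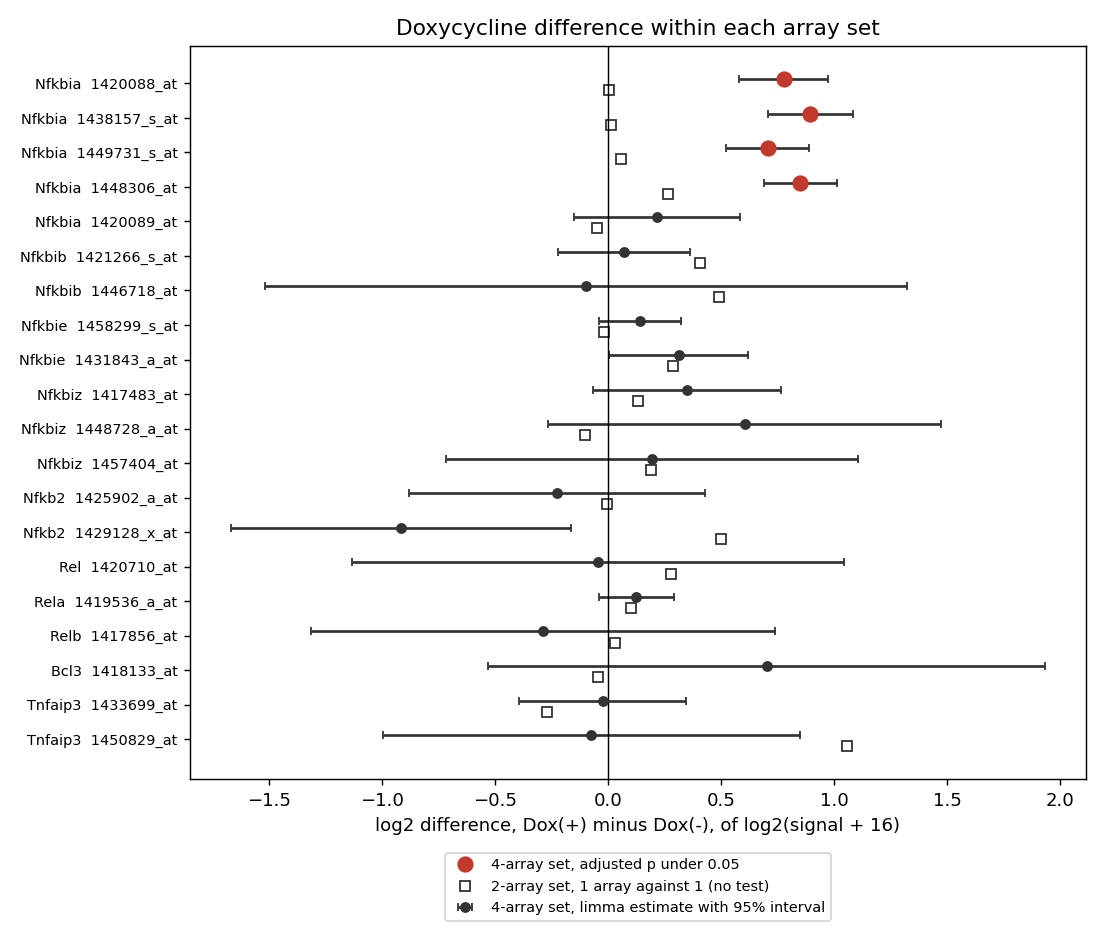
Log2 difference, Dox(+) minus Dox(-), of all 20 probe sets in the 4-array set (circles with the limma 95% interval, red where the adjusted p is under 0.05) and in the 2-array set (open squares, 1 array against 1 with no test). The 4 red circles, all of Nfkbia, lie between 0.71 and 0.89, with their squares between 0.005 and 0.26.

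The other cytoplasmic inhibitors did not pass with doxycycline. Nfkbie encodes IkappaBepsilon. Its probe set 1431843_a_at had signals of 337 and 344 in Dox(+) against 267 and 276 in Dox(-) cells of the 4-array set, and of 168 against 135 in the 2-array set. Here Dox(+) was higher within both sets and by a similar ratio (1.24 in the 4-array and 1.22 in the 2-array set), and the blocked difference was 0.30 (SE 0.13, 95% interval 0.02 to 0.59, limma adjusted p 0.50). The brighter probe set of the same gene, 1458299_s_at, had 999 and 987 in Dox(+) against 894 and 907 in Dox(-) cells of the 4-array set and 389 against 394 in the 2-array set, a blocked difference of 0.09 (-0.09 to 0.26). Its interval overlaps that of 1431843_a_at.

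Nfkbib, which encodes IkappaBbeta, had signals of 465 and 568 in Dox(+) against 496 and 482 in Dox(-) cells of the 4-array set, and of 965 against 723 in the 2-array set (1421266_s_at). The groups overlapped in the 4-array set, and the blocked difference was 0.18 (SE 0.11, limma adjusted p 0.65). Its second probe set, 1446718_at, was dim, with signals from 7.06 to 62.3, and differed by 0.10 (SE 0.48).

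Tnfaip3 encodes A20, a ubiquitin-editing enzyme that shuts off signalling upstream of IKK and is, like Nfkbia, a target gene of NF-kappaB. Its brighter probe set, 1433699_at, had signals of 241 and 250 in Dox(+) against 234 and 267 in Dox(-) cells of the 4-array set, and of 75.4 against 94.1 in the 2-array set. The Dox(+) arrays lay between the Dox(-) arrays in the 4-array set, where the difference was -0.02 (95% interval -0.40 to 0.35), and the blocked difference was -0.11 (SE 0.17, limma adjusted p 0.90). The second probe set, 1450829_at, had 80.8 and 60.9 in Dox(+) against 90.5 and 61.6 in Dox(-) cells of the 4-array set, and 59.5 against 20.2 in the 2-array set. The sets pointed opposite ways there, and its blocked difference was 0.30 (SE 0.37).

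The nuclear members of the IkappaB family bind NF-kappaB dimers on DNA. Nfkbiz encodes IkappaBzeta, a coactivator of some inflammatory genes. Its probe set 1417483_at had signals of 252, 294 and 270 in Dox(+) and 228, 192 and 248 in Dox(-) cells. The 3 Dox(+) arrays all lay above the 3 Dox(-) arrays, which held for this 1 of the 20 probe sets and for 3.75% of all probe sets. The blocked difference of 0.28 (SE 0.15, 95% interval -0.05 to 0.61, limma adjusted p 0.60) did not pass. The other Nfkbiz probe sets, 1448728_a_at and 1457404_at, differed by 0.37 (SE 0.28) and 0.19 (SE 0.31), so all 3 were positive with intervals that include 0. Bcl3 encodes a partner of the p50 and p52 subunits, and its only probe set (1418133_at) was dim, with 40.4, 11.5 and 53.2 in Dox(+) and 42.2, 8.59 and 13.3 in Dox(-) cells. The groups overlapped, and its blocked difference was 0.45 (SE 0.43).

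**Figure D3:**
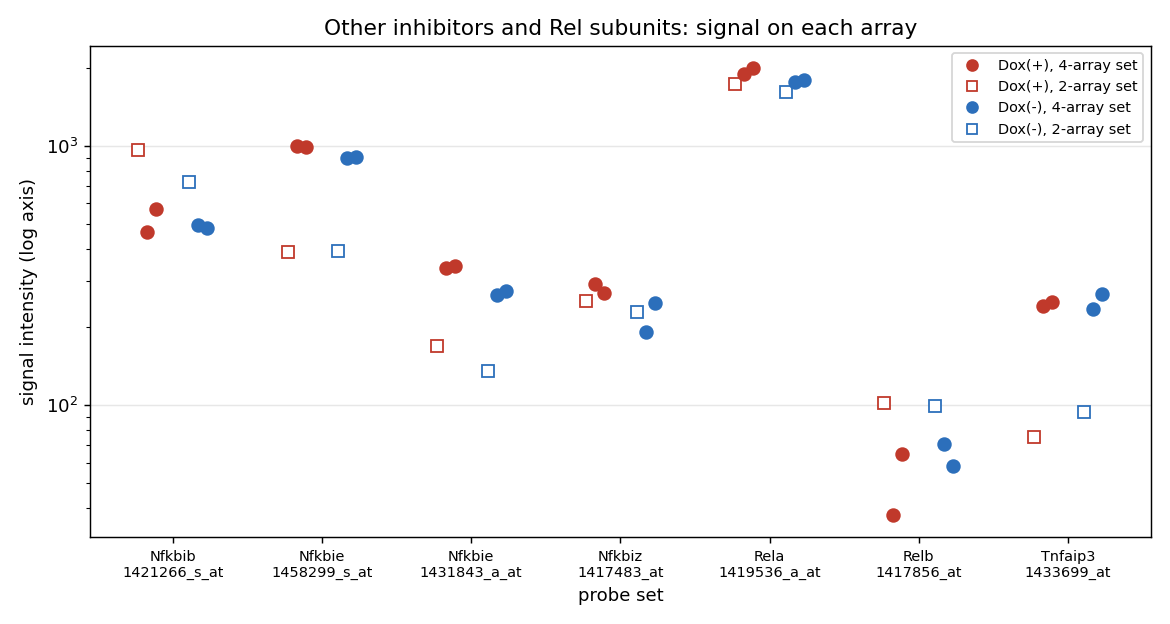
Signal intensity (log axis) on each array for 7 probe sets of other inhibitors and Rel subunits, with Dox(+) in red to the left and Dox(-) in blue to the right, filled circles for the 4-array set and open squares for the 2-array set. The Nfkbie and Tnfaip3 squares lie below their circles and the Nfkbib squares above theirs, whatever the doxycycline group, while the Rela points of all 6 arrays lie between 1613 and 1990.

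Among the DNA-binding subunits of the 10 genes, Rela was the steadiest and none passed. It was also the brightest, with a mean signal of 1796 against 54.8 for Rel and 72.2 for Relb. Nfkb1 is not among the 10 genes or the pathway lists and was not examined here. Rela encodes p65, the main activating subunit, and had signals of 1730, 1890 and 1990 in Dox(+) and 1613, 1769 and 1786 in Dox(-) cells (1419536_a_at). Dox(+) was higher within both sets, but the groups overlapped across them, with a mean of 1870 ± 131 in Dox(+) and of 1723 ± 95.1 in Dox(-) cells (SD, n = 3 each). The blocked difference of 0.12 (SE 0.06, 95% interval -0.02 to 0.25, limma adjusted p 0.60) leaves room for a fold change of 0.985 to 1.19. Rel encodes c-Rel, the subunit that is prominent in lymphocytes, and had 74.2, 43.7 and 50.5 in Dox(+) and 58.5, 66.8 and 35.2 in Dox(-) cells, a difference of 0.06 (SE 0.34). Relb encodes the partner of p52 in the non-canonical pathway, and had 102, 37.8 and 64.8 in Dox(+) and 99.3, 71.1 and 58.4 in Dox(-) cells, a difference of -0.18 (SE 0.31). The intervals of Rel (-0.71 to 0.84) and Relb (-0.88 to 0.52) are wide and include 0.

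Nfkb2 encodes p100, which acts as an inhibitor until it is processed to the subunit p52. Its probe set 1425902_a_at had 198, 205 and 117 in Dox(+) and 199, 189 and 180 in Dox(-) cells, a blocked difference of -0.15 (SE 0.21). Only the Dox(+) array at 117 stood apart from the rest. Probe set 1429128_x_at, whose ending marks probes that may hybridise to other transcripts, had 71.3 and 142 in Dox(+) against 204 and 207 in Dox(-) cells of the 4-array set, and 204 against 140 in the 2-array set. The 2 sets thus pointed opposite ways. The blocked difference was -0.45 (SE 0.32, limma adjusted p 0.72), that in the 4-array set -0.92 (SE 0.32, 0.37) and the interaction -1.41 (SE 0.54, 0.83), none of which passed.

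Probe sets of Nfkbia, Nfkbie, Tnfaip3 and Nfkbib differed between the 2 array sets, whatever the doxycycline group. In the same blocked fit 7 of the 20 probe sets were higher in the 4-array set than in the 2-array set, beside 13.4% of all probe sets, and 1 was lower, beside 11.4%. The 7 were 4 of Nfkbia, both of Nfkbie and 1 of Tnfaip3, and the lower one was of Nfkbib, so these are 3 genes that were higher and 1 that was lower. Without Nfkbia, 3 of 15 probe sets were higher and 1 was lower. Together these are 26.7%, near the 24.8% of all probe sets called in either direction. For Nfkbia the 4-array set was higher by 3.58-fold (95% interval 2.92 to 4.38) for 1449731_s_at, 3.09-fold (2.57 to 3.72) for 1448306_at, 3.01-fold (2.34 to 3.87) for 1438157_s_at and 2.29-fold (1.82 to 2.88) for 1420088_at, with limma adjusted p from 7.1e-06 to 2.0e-04. The probe set 1420089_at was higher by 1.29-fold and did not pass (limma adjusted p 0.13). For Nfkbie the difference was 2.36-fold (2.07 to 2.69) for 1458299_s_at and 1.92-fold (1.55 to 2.37) for 1431843_a_at, with limma adjusted p of 5.3e-06 and 5.5e-04. For Tnfaip3 1433699_at the mean signal was 248 in the 4-array and 84.8 in the 2-array set (2.63-fold, 2.001 to 3.46, limma adjusted p 2.4e-04). Nfkbib 1421266_s_at ran the other way, with means of 503 and 844, at 0.608 of the 2-array level (0.507 to 0.728, limma adjusted p 0.0012). The other probe sets of Tnfaip3 and Nfkbib were not called. Their log2 differences were 0.76 (SE 0.39, limma adjusted p 0.22) for 1450829_at and -0.85 (SE 0.51, 0.30) for 1446718_at.

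The Rel subunits were not called between the sets. Rela differed by 0.15 (SE 0.06, limma adjusted p 0.14), Rel by -0.36 (SE 0.36, 0.59), Relb by -0.68 (SE 0.33, 0.20) and the 2 Nfkb2 probe sets by -0.21 (SE 0.22, 0.61) and -0.20 (SE 0.34, 0.78). The 95% intervals of Rel (-1.18 to 0.46) and Relb (-1.42 to 0.07) are wide. Both include -0.72, the difference of the called Nfkbib probe set, so a difference of that size is not excluded for them. The nuclear IkappaB genes were not called either, with Nfkbiz at -0.69 to 0.60 and Bcl3 at -0.74. A difference between the sets is not particular to these genes, as 24.8% of all probe sets passed. The markers of the interleukin-3 dependent line moved in the same way, with a summed signal of 57869 to 63975 in the 4-array and 23321 to 24996 in the 2-array set and 7 of 10 probe sets higher. The myelomonocytic markers had a summed signal of 2393 to 2650 in the 4-array and 2564 to 2592 in the 2-array set, with 4 of 10 probe sets higher and 2 lower. The 3′ control signal of pyruvate carboxylase was 2205 to 2657.5 in the 4-array and 678 to 694 in the 2-array set, and its 5′ signal 835 to 983 in the 4-array and 89.3 to 94.9 in the 2-array set. The ratio of 3′ to 5′ actin control signals was 1.18 to 1.24 in the 4-array and 1.17 to 1.18 in the 2-array set. That of Gapdh was 0.637 to 0.680 in the 4-array and 0.684 to 0.688 in the 2-array set, so neither ratio differed as pyruvate carboxylase did. The part of the cell markers and of RNA quality in the result was not tested.

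**Figure D4:**
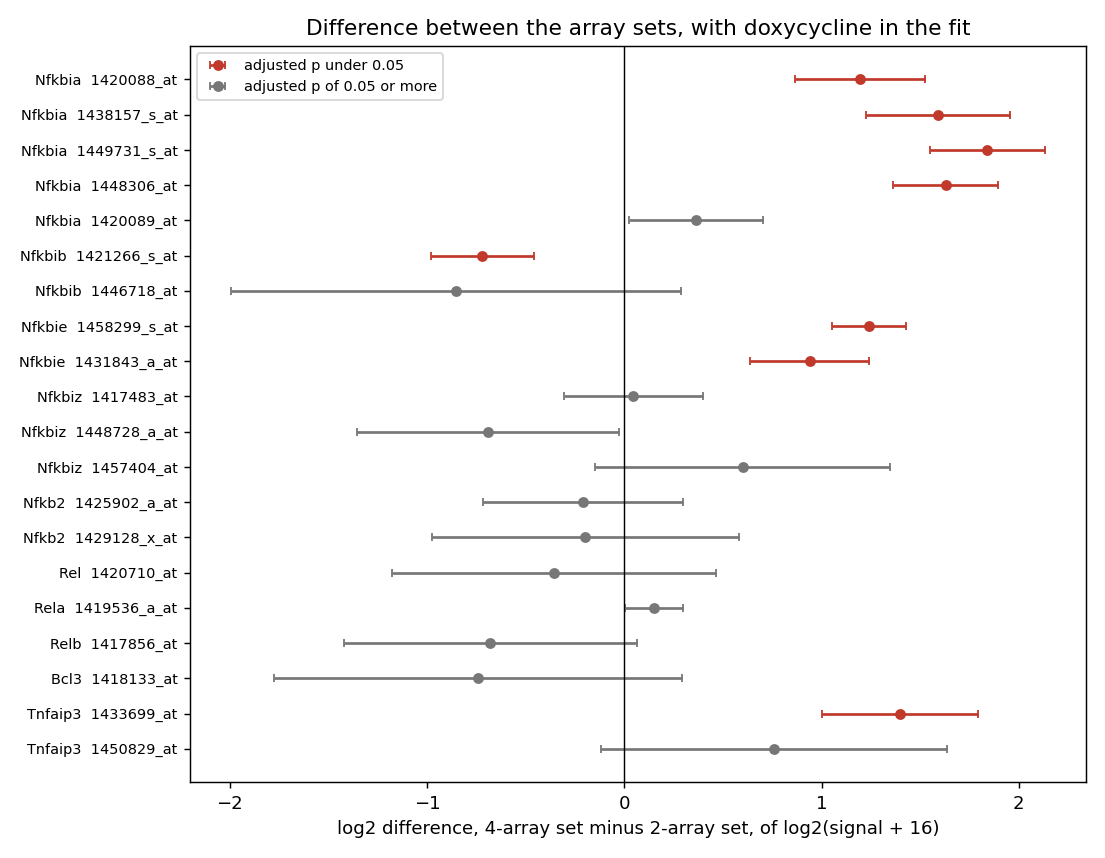
Log2 difference between the array sets, 4-array minus 2-array, of the 20 probe sets with the limma 95% interval, from the fit that also holds doxycycline, in red where the adjusted p is under 0.05. The Nfkbia, Nfkbie and Tnfaip3 values in red lie between 0.94 and 1.84 and that of Nfkbib at -0.72, while the Rela interval is the narrowest near 0.

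Over the 20 probe sets the median doxycycline difference was 0.19 and 16 were positive, against a median of -0.01 and 48.6% positive over all probe sets tested. Without the 5 of Nfkbia the median was 0.12, with 11 of 15 positive. Positive shares of this size are not particular to these genes. The interleukin-3 dependent line markers had a median of 0.13 (8 of 10 positive). Those of the early B lineage had 0.17 (7 of 11) and the myelomonocytic ones -0.02 (4 of 10). Of the 20 probe sets 18 lay above the limit for dim probe sets, against 27022 of all 45037. Within the sets the median of the 20 was 0.17 in the 4-array and 0.08 in the 2-array set, against -0.015 and 0.006 over all probe sets. By the mean of a gene's probe sets 8 of the 10 genes were positive, Nfkb2 and Relb being the negative ones, and Nfkbia was highest at 0.48 (SE 0.12, limma adjusted p 0.25). None of these means passed, and the share of positive means over all genes is not given here.

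The rest of the pathway was followed in 4 lists of 81 genes, of which 74 were measured by 172 probe sets, and none of these was called with doxycycline in the blocked fit or in the 4-array set alone. At an unadjusted limma p under 0.05 the blocked fit held 15 of the 172 (8.72%), close to the 9.44% of all probe sets. Of 58 probe sets for 29 known target genes, 29 were positive and 29 negative, with a median of 0.00. The values that follow are those of the gene's probe set with the smallest p, and the others of the gene are given where any differs in sign or the values spread widely. The genes with the smallest p were Ier3, an immediate early gene, at -0.37 (SE 0.07), Il2ra, the alpha chain of the interleukin-2 receptor, at -1.12 (SE 0.23), the cytokine gene Il6 at 0.25 (SE 0.08) and Bcl2l1, which encodes the survival protein BCL-xL, at 0.41 (SE 0.16), with limma adjusted p of 0.16, 0.17, 0.34 and 0.46. The other 3 Bcl2l1 probe sets lay at -0.18 to -0.01. Il2ra had signals of 574, 75.4 and 98.9 in Dox(+) and 2121, 138 and 178 in Dox(-) cells, and so was lower with doxycycline within both sets. Ier3 had 2237, 6495 and 7714 in Dox(+) and 2869, 9269 and 9146 in Dox(-) cells and was also lower within both sets.

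Of 52 probe sets for 19 adaptors and kinases up to IKK, 31 were positive and 21 negative (median 0.05). Traf5, an adaptor of receptors of the tumour necrosis factor family, had 462, 529 and 492 in Dox(+) and 343, 415 and 355 in Dox(-) cells, without overlap, and differed by 0.40 (SE 0.10, limma adjusted p 0.27). Sharpin, of the linear ubiquitin ligase complex, was at 0.26 (SE 0.07), Irak1, a kinase of the interleukin-1 receptor pathway, at -0.38 (SE 0.12) and Ikbkg, the regulatory subunit of IKK, at 0.68 (SE 0.24), with limma adjusted p of 0.30, 0.36 and 0.42. The other Sharpin probe set lay at -0.01, the other 3 of Irak1 at 0.07 to 0.09 and the other 5 of Ikbkg at -0.02 to 0.14. Of 35 probe sets for 13 other negative regulators, 18 were positive and 17 negative (median 0.01). Irak3, an inhibitor of Toll-like receptor signalling, was at -0.32 (SE 0.06, limma adjusted p 0.15), with 461, 2046 and 2059 in Dox(+) and 595, 2551 and 2504 in Dox(-) cells, lower within both sets. The deubiquitinase gene Otud7b was at 0.33 (SE 0.13), Itch, a ubiquitin ligase that works with A20, at -0.72 (SE 0.31) and Tax1bp1, an adaptor of A20, at 0.20 (SE 0.09). The other 3 Itch probe sets lay at -0.43 to -0.01. Of 27 probe sets for 13 receptors, 12 were positive and 15 negative (median -0.02). The 4 with the smallest p were dim, namely Tlr9 at 0.76 (SE 0.49), Tlr4 at 0.57 (SE 0.40), Tnfrsf11a at 0.61 (SE 0.43) and Tnfrsf13c at -0.46 (SE 0.35). The other Tlr4 probe sets lay at -0.05 to 0.59 and the other of Tnfrsf11a at -0.11.

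**Figure D5:**
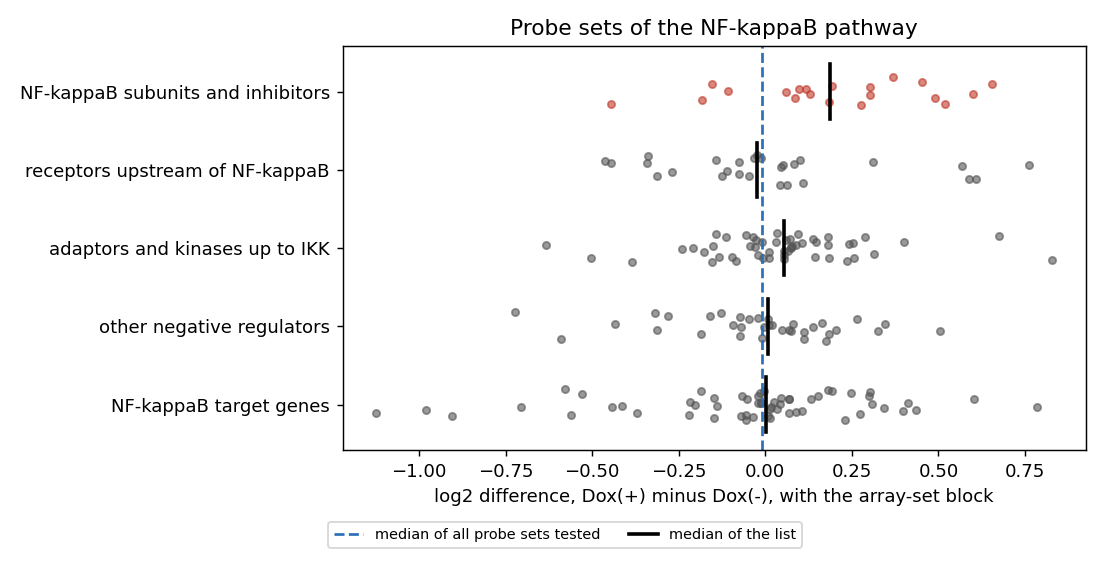
Log2 difference, Dox(+) minus Dox(-), with the array-set block, of each probe set (points, spread vertically for view) of the 10 NF-kappaB genes (red) and of the 4 other pathway lists (grey), with each list's median (black bar) and the median of all probe sets tested (dashed line). The medians are 0.19 for the 10 genes and -0.02 to 0.05 for the other lists, and the all-probe-set median is -0.01.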

How the data were processed

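RNA of 6 Ba/F3 samples was measured on Affymetrix Mouse Genome arrays. The authors deposited a signal intensity for each probe set on a linear scale. The submitters' processing notes name Affymetrix Expression Console. The algorithm is not given in the sources used here, and no detection calls were used. With 2% of values trimmed at each end, every array had a mean of 500.003, so only relative levels can be compared. Signals were transformed here to log2(signal + 16). Groups came from the source names. Of 45101 probe sets, 64 controls were left out. Names came from the platform annotation, and 34945 probe sets had 1 symbol, 932 several and 9160 none listed. Models were fitted with limma 3.58.1 under R 4.3.3 (lmFit, eBayes with trend) over 45037 probe sets with doxycycline and a fixed block for the array set, two-sided, Benjamini-Hochberg adjusted. The array set and an interaction were tested likewise. The fit was tested on simulated data. The number of arrays limits the precision. Members, lists and the choice of the block were made with earlier results of these data known. Every member probe set is named, and of each pathway list the 4 genes with the smallest p. Of the listed pathway genes, 74 of 81 were measured by a probe set with a single symbol and the rest were not analysed here. The alternatives were no block, the sets alone, quantile normalization, median centring, pseudocounts of 1 and 64, no trend, a robust prior, leaving out probe sets under the 40th percentile of mean signal, 1 value per gene by the brightest or the mean probe set, a threshold of 0.10 on the adjusted p and each array left out in turn.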

Additional observations from a re-analysis of the deposited data

How the results depend on the processing

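The count of 0 member probe sets called with doxycycline in the blocked fit became 4 in the 4-array set alone (all of Nfkbia) and 1 without dim probe sets (Nfkbia 1448306_at, limma adjusted p 0.040, with fewer probe sets tested). The other normalizations, pseudocounts, limma settings and choices of probe sets were not applied to the 4-array set alone. How far its 4 calls depend on them was therefore not tested. Leaving out each array in turn gave 0 to 3 calls. The 3 came without the Dox(+) or the Dox(-) array of the 2-array set, where the differences are those of the 4-array set by construction. Over all probe sets the blocked fit called 39, against 0 without the block, without the trend or without any single array of the 4-array set, 7 with a pseudocount of 64, 13 with the mean of each gene's probe sets, 62 with a pseudocount of 1, 88 at an adjusted p under 0.10 and 110 without dim probe sets, and the cause was not tested. The 8 calls between the array sets were 4 with the brightest probe set of each gene and 3 with the mean of its probe sets (Nfkbib not called, limma adjusted p 0.067), where 10 values were tested in place of 20, and 8 in every other alternative, including each left-out array. The pathway lists had 0 calls in every alternative, and the interaction 0 in each alternative where it could be fitted, which leaves out the fits without an array of the 2-array set, without the block and within 1 set. No called difference changed sign. The array-set block compares the Dox(+) and the Dox(-) array of the 2-array set with each other. Within the 4-array set no pairing was possible, because the labels number no replicates. Without a second array per group in the 2-array set, its ratios have no error of their own, and depth in the sense of signal limits the dim probe sets Bcl3 and Nfkbib 1446718_at.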
